A study of Homo sapiens with 12 samples.

Results

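GEM, RAB31, TNFRSF21, MCAM and RARRES2 are 5 protein-coding genes whose RNA moved in opposite directions in neuroblastoma cells when an shRNA against RCOR2 or an shRNA against RCOR1 was switched on. They were chosen on measured values, by their gene names, as genes with lower TPM (a transcript level scaled by gene length and by the library total) in induced shRCOR2 cells and higher TPM in induced shRCOR1 cells. They make up 5 of the 60660 gene identifiers in the data and 5 of the 16842 genes that reached 1 TPM in at least 2 of the 12 libraries, and all 5 had at least 1 TPM in every library. Because the changes in the shRCOR2 and shRCOR1 lines and the gap between them chose these genes, those values are described here without a test, and tests of the members are given only for the shCTRL line and for the lines before induction.

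The cells were Kelly, a human neuroblastoma line with amplified MYCN, engineered to transcribe a short hairpin RNA (shRNA) once doxycycline is present. The groups were induced and untreated shRCOR2 cells, induced and untreated shRCOR1 cells, and induced and untreated shCTRL cells, the last line holding a hairpin with no target; every group had 2 libraries. Induced cells received 2 µg/mL doxycycline, for 72 h by the sample labels and for 24 or 48 h by the treatment protocol, a conflict that the labels do not settle. All groups came from 1 parental cell line, untreated cells carried the same uninduced hairpin as their induced counterparts, and cells without a hairpin were not analysed here. The labels do not say whether replicates were separate cultures, so every p-value measures only the spread between these libraries, and in bulk RNA fewer cells of a kind and less RNA per cell cannot be told apart.

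RCOR1 and RCOR2 encode related corepressor scaffolds that tether the histone demethylase KDM1A and histone deacetylases to chromatin. The 5 members act at different places in the cell. GEM encodes a small GTPase of the RGK family, which restrains voltage-gated calcium channels; RAB31 encodes a GTPase of the RAB5 subfamily that works in transport between the trans-Golgi network and endosomes. TNFRSF21 encodes death receptor 6, MCAM encodes the adhesion molecule CD146, and RARRES2 encodes chemerin, a secreted chemoattractant first found as a retinoid-responsive gene.

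The promoter windows of 3 members are printed because an E-box or a cAMP response element fell close to the start of transcription in each. Windows from RefSeq (GRCh38.p14) ran from 250 bases before to 50 bases after the start. They were taken for 4 of the 5 members (RAB31, TNFRSF21, MCAM and RARRES2), and GEM was left out of the promoter search. Capitals mark the E-box CACGTG, bound by MYC-type factors, or the cAMP response element TGACGTCA, bound by CREB-type factors.
RAB31, chr18:9708051-9708350, plus strand: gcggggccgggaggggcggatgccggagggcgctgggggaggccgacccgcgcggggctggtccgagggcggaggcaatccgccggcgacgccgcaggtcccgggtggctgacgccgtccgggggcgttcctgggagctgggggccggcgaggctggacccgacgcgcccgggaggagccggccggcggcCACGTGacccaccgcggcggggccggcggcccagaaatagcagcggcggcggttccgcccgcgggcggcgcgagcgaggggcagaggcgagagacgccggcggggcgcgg
TNFRSF21, chr6:47309856-47310155, minus strand: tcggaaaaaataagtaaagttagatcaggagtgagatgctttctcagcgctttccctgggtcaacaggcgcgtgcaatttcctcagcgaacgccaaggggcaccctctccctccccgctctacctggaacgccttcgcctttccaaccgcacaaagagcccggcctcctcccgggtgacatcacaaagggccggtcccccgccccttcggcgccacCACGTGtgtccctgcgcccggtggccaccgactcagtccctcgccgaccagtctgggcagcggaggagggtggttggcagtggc
MCAM, chr11:119317081-119317380, minus strand: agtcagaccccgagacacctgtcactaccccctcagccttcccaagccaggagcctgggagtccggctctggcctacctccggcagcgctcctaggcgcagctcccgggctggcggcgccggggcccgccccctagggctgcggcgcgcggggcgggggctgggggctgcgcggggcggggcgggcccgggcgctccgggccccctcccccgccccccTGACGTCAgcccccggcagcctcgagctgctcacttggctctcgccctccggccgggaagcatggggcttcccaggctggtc

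The E-box began 60 bases before the start in RAB31 and 34 bases before it in TNFRSF21, and the cAMP response element began 32 bases before the start in MCAM. On either strand, CACGTG was present in 7.26% and TGACGTCA in 1.85% of all 35116 RefSeq promoter windows of that length. Neither the AP-1 motif TGANTCA (7.71% of windows) nor the nuclear receptor motif AGGTCA (13.8% of windows) had a match in the 4 windows, and the GC box GGGCGG (45% of windows) matched 4 times in RAB31, 1 time in TNFRSF21, 5 times in MCAM and 2 times in RARRES2. No motif other than the GC box was shared by all 4 windows, and a match describes letters only. The RefSeq start of MCAM lies inside the longer span that the deposited tables give this gene.

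In the libraries as a whole, relative depth differed by up to 2.14 times, 14758 to 16026 genes reached 1 TPM, mitochondrially encoded genes took 13.3 to 21.4% of TPM, and replicates correlated across genes at 0.967 to 0.990. The targeted RNAs followed the labels: RCOR2 was 17.7 and 20.5 TPM in induced against 55.4 and 49.9 TPM in untreated shRCOR2 cells, and RCOR1 was 4.80 and 5.07 TPM in induced against 8.32 and 9.08 TPM in untreated shRCOR1 cells. The log2 changes were -1.42 ± 0.11 SE for RCOR2 (limma adjusted p = 0.000403) and -0.71 ± 0.12 SE for RCOR1 (limma adjusted p = 0.0109). RCOR2 also fell in the shRCOR1 line, to 26.0 and 26.3 TPM in induced cells against 51.4 and 50.5 TPM in untreated cells (log2 change -0.94 ± 0.11 SE, limma adjusted p = 0.00278), so lower RCOR2 was common to the 2 lines in which the members moved oppositely. RCOR1 did not pass the test in the shRCOR2 line (log2 change 0.01 ± 0.12 SE, limma adjusted p = 0.983). The 10 adrenergic neuroblastoma markers, HAND2 and TH among them, summed to 5200 to 9636 TPM over the 12 libraries, while all 5 leukocyte markers were below 1 TPM in every library and 1 of them was at 0. The 5 Schwann cell markers summed to 1.94 to 10.1 TPM.

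GEM (ENSG00000164949.8, in the files' build GRCh38 at chr8:94249253-94262350, minus strand) had the largest gap of the 5 members between its changes in the 2 knockdown lines. It was measured at 8.55 and 5.71 TPM in induced shRCOR2 cells against 22.2 and 14.2 TPM in untreated shRCOR2 cells, and at 94.1 and 95.8 TPM in induced shRCOR1 cells against 20.4 and 15.6 TPM in untreated shRCOR1 cells. In the shCTRL line it was 16.6 and 21.4 TPM in induced cells and 21.6 and 15.0 TPM in untreated cells. The induced shRCOR2 libraries were the lowest of the 12, the induced shRCOR1 libraries the highest, and the other 8 overlapped one another between 14.2 and 22.2 TPM. The mean was 2.55 times lower in induced than in untreated shRCOR2 cells (log2 change -1.23 ± 0.27 SE) and 5.27 times that of untreated cells in the induced shRCOR1 cells (log2 change 2.35 ± 0.27 SE). By size, these were the 151st largest fall and the 46th largest rise among the 16842 genes.

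RAB31 (ENSG00000168461.13, chr18:9708275-9862551, plus strand) had the highest relative rise of the 5. Its level was 2.11 and 2.38 TPM in induced shRCOR2 cells against 4.57 and 5.86 TPM in untreated shRCOR2 cells. In the shRCOR1 line it was 25.7 and 36.6 TPM in induced cells against 4.64 and 4.84 TPM in untreated cells, and in the shCTRL line 4.90 and 6.71 TPM in induced cells against 4.70 and 6.45 TPM in untreated cells. No induced shRCOR2 or shRCOR1 library overlapped any other group, and the replicates of induced shRCOR1 cells were further apart than those of the other groups (31.2 ± 7.73 TPM, SD, n = 2). The mean was 2.32 times lower in induced than in untreated shRCOR2 cells (log2 change -0.93 ± 0.22 SE) and 6.58 times that of untreated cells in induced shRCOR1 cells (log2 change 2.47 ± 0.22 SE).

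TNFRSF21 (ENSG00000146072.6, chr6:47231532-47309905, minus strand), the receptor of the set, was the member with the deepest fall and the smallest rise. Induced shRCOR2 cells had 7.20 and 6.84 TPM against 26.1 and 27.3 TPM in untreated shRCOR2 cells, and induced shRCOR1 cells had 54.8 and 65.4 TPM against 22.5 and 27.5 TPM in untreated shRCOR1 cells. The shCTRL line had 22.7 and 29.6 TPM in induced cells and 25.6 and 28.7 TPM in untreated cells. Induced shRCOR2 cells lay below, and induced shRCOR1 cells above, a band of 22.5 to 29.6 TPM that held the other 8 libraries. The mean was 3.81 times lower in induced than in untreated shRCOR2 cells (log2 change -1.79 ± 0.16 SE), the 20th largest fall of all genes tested. It was 2.41 times that of untreated cells in induced shRCOR1 cells (log2 change 1.24 ± 0.16 SE), the 297th largest rise.

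MCAM (ENSG00000076706.17, chr11:119308529-119321521, minus strand), the adhesion molecule, had 2.30 and 2.91 TPM in induced shRCOR2 cells against 7.73 and 11.1 TPM in untreated shRCOR2 cells. It had 21.4 and 25.8 TPM in induced shRCOR1 cells against 8.68 and 9.84 TPM in untreated shRCOR1 cells, and 7.44 and 11.7 TPM in induced against 7.57 and 12.1 TPM in untreated shCTRL cells. The 8 libraries outside the induced knockdown groups overlapped fully, with the second replicate above the first in each group. The mean was 3.62 times lower in induced than in untreated shRCOR2 cells (log2 change -1.52 ± 0.27 SE) and 2.55 times that of untreated cells in induced shRCOR1 cells (log2 change 1.26 ± 0.27 SE). MCAM shares bases with CBL on the opposite strand, and no source used here gives the strand setting of the quantification. CBL was 6.04 to 10.7 TPM over the 12 libraries, with log2 changes of -0.06 ± 0.29 SE in the shRCOR2 line and -0.06 ± 0.29 SE in the shRCOR1 line.

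RARRES2 (ENSG00000106538.10, chr7:150338317-150341662, minus strand), the secreted ligand, was the least abundant member. An overlapping gene on the opposite strand, AC005586.1, stayed at or below 0.617 TPM. It had 1.10 and 1.20 TPM in induced shRCOR2 cells against 2.50 and 4.11 TPM in untreated shRCOR2 cells, 12.8 and 14.3 TPM in induced shRCOR1 cells against 3.16 and 4.39 TPM in untreated shRCOR1 cells, and 2.67 and 2.91 TPM in induced shCTRL cells against 2.07 and 3.75 TPM in untreated shCTRL cells. The induced knockdown groups again lay outside all others, while the 8 remaining libraries ran from 2.07 to 4.39 TPM. The mean was 2.87 times lower in induced than in untreated shRCOR2 cells and 3.59 times that of untreated cells in induced shRCOR1 cells. On the log2(TPM + 1) scale the changes were -0.98 ± 0.25 SE and 1.62 ± 0.25 SE, and because the level is near the added 1, the fall measured -1.41 with an added 0.1 and -0.65 on the deposited FPKM values.

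**Figure D1:**
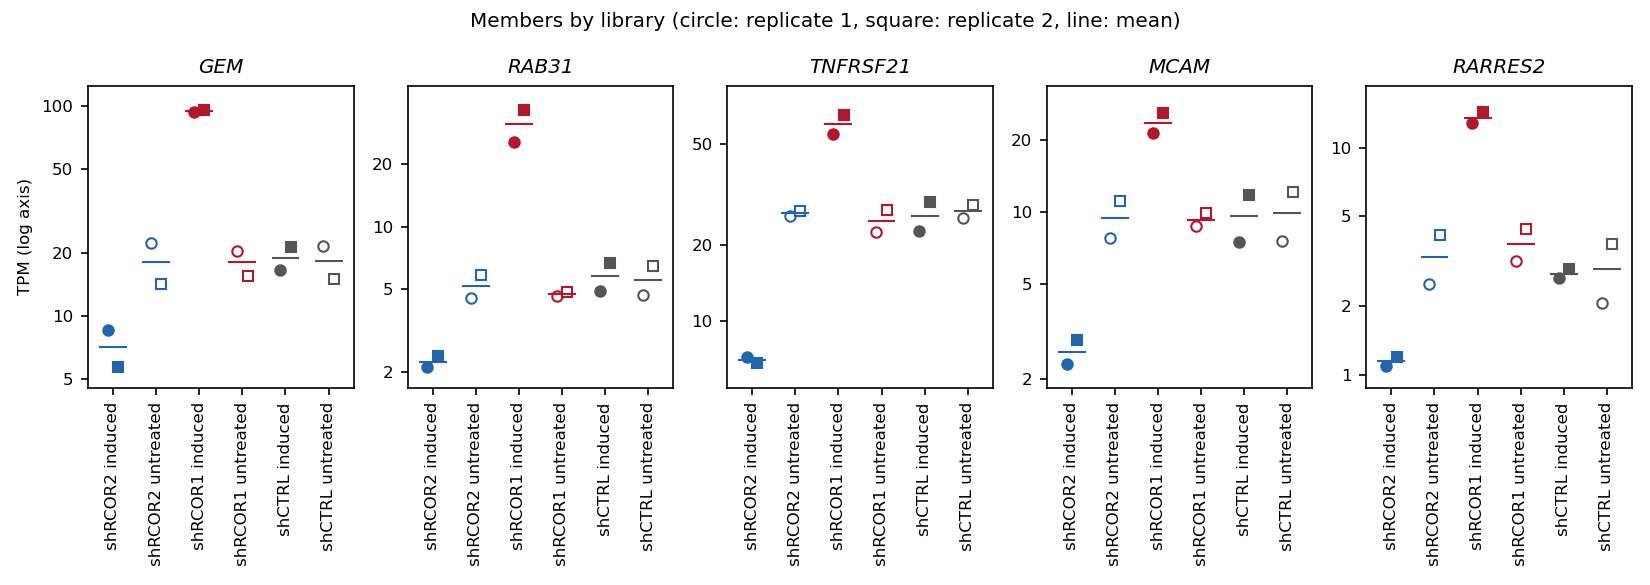
TPM (log axis) of each member in the 12 libraries, with induced left of untreated in each line; circles are replicate 1, squares replicate 2, filled symbols induced cells and lines group means. In every panel the induced shRCOR2 libraries are the lowest and the induced shRCOR1 libraries the highest, for GEM at 8.55 and 5.71 TPM and at 94.1 and 95.8 TPM.

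In all 5 members the 2 induced shRCOR2 libraries were the lowest and the 2 induced shRCOR1 libraries the highest of the 12; 536 of the 16842 genes (3.18%) had this arrangement and 573 (3.4%) the reverse. Set against each other, induced shRCOR1 cells held 13.3 times the GEM, 13.9 times the RAB31, 8.57 times the TNFRSF21, 9.06 times the MCAM and 11.8 times the RARRES2 of induced shRCOR2 cells. The members split in how the span was made up. TNFRSF21 and MCAM fell by more on the log2(TPM + 1) scale than they rose, whereas GEM, RAB31 and RARRES2 rose by more than they fell. For RARRES2 the plain TPM ratios of replicate 2, 0.293 with shRCOR2 and 3.27 with shRCOR1, put the fall slightly ahead.

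Ratios within replicate numbers showed the same arrangement. In the shRCOR2 line, the induced to untreated ratio in replicates 1 and 2 was 0.385 and 0.403 for GEM, 0.461 and 0.406 for RAB31, and 0.276 and 0.250 for TNFRSF21. It was 0.298 and 0.262 for MCAM and 0.439 and 0.293 for RARRES2, so RARRES2 had the least even pair. In the shRCOR1 line the ratio was 4.60 and 6.15 for GEM, 5.54 and 7.57 for RAB31, 2.44 and 2.38 for TNFRSF21, 2.46 and 2.62 for MCAM, and 4.03 and 3.27 for RARRES2. The second replicate was above the first in 6 of 6 groups for RAB31, MCAM and RARRES2, in 5 for TNFRSF21 and in 2 for GEM.

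The induced shCTRL line received doxycycline and held a hairpin with no target, and the rule that chose the members does not name it. The members were still picked with earlier results of these data known. PLAT, SLC7A5, FOSL2 and CNN1 had larger gaps between the knockdown lines than RARRES2 but are no members. In the shCTRL line they changed by -0.11, 0.84, 0.45 and -0.38, each a larger change than that of any member. Little change in the shCTRL line may thus come with the choice of members, and the test is no independent support. None of the 5 members passed the test there (limma, Benjamini-Hochberg adjusted p of 0.996 for TNFRSF21 and 1 for the other 4). Among all genes 0% passed, while 938 genes (5.57%) had an unadjusted p under 0.05 and none of the members did, the lowest being 0.696. Log2 changes and their 95% intervals were 0.06 (-0.56 to 0.68) for GEM, 0.05 (-0.46 to 0.56) for RAB31 and -0.06 (-0.42 to 0.30) for TNFRSF21. They were -0.04 (-0.66 to 0.58) for MCAM and -0.01 (-0.59 to 0.57) for RARRES2. These intervals leave room for modest changes, and they are not set against the changes that chose the members. With the replicate number as a block, 10 genes passed (0.0594%), and no member was among them.

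Before induction the values of the 3 lines overlapped for every member. Group means in untreated shRCOR2, untreated shRCOR1 and untreated shCTRL cells were 18.2 ± 5.68, 18.0 ± 3.45 and 18.3 ± 4.68 TPM for GEM and 5.21 ± 0.913, 4.74 ± 0.144 and 5.58 ± 1.24 TPM for RAB31 (SD, n = 2). For TNFRSF21 they were 26.7 ± 0.911, 25.0 ± 3.53 and 27.2 ± 2.24 TPM, and for MCAM 9.41 ± 2.38, 9.26 ± 0.822 and 9.85 ± 3.22 TPM. RARRES2 had 3.31 ± 1.14, 3.77 ± 0.866 and 2.91 ± 1.19 TPM, the widest relative gap of the 5. No member passed the test against untreated shCTRL in either line (limma adjusted p = 1 throughout), and 0% of all genes did, with 123 genes (0.73%) in untreated shRCOR2 and 114 genes (0.677%) in untreated shRCOR1 at an unadjusted p under 0.05. The largest member difference, RARRES2 in untreated shRCOR1 against untreated shCTRL, was 0.31 on the log2 scale with a 95% interval of -0.27 to 0.89. Both shares at an unadjusted p under 0.05 lie below what that cut gives by chance, so this test was conservative. Same-numbered libraries deviated together, which adds to the spread in this fit, so small differences between the lines can be missed. With the replicate block 0% of all genes passed as well. These comparisons use the untreated libraries that also entered the choice of members.

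Ordered by mean level, induced shRCOR2 was thus last and induced shRCOR1 first for every member, and among the 4 groups between them the values of neighbours in the order overlapped. Induced shCTRL and untreated shRCOR1 cells did not overlap for RAB31, higher in induced shCTRL, or for RARRES2, lower in induced shCTRL, and that pair of groups was not tested.

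**Figure D2:**
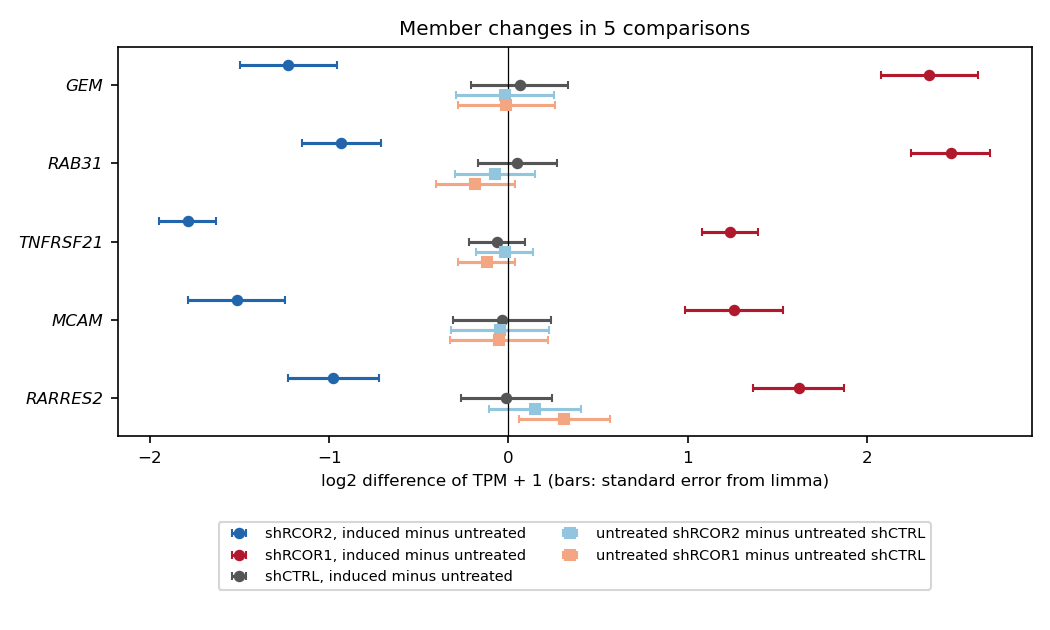
Log2 differences of TPM + 1 (x axis, bars are limma standard errors) for each member in 5 comparisons. The shRCOR2 changes lie between -1.79 and -0.93 and the shRCOR1 changes between 1.24 and 2.47, while the shCTRL changes and the differences between untreated lines lie near 0.

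Over all genes tested, 1090 (6.47%) were called lower and 1316 (7.81%) higher in induced shRCOR2 cells, and 838 (4.98%) were called higher and 613 (3.64%) lower in induced shRCOR1 cells. A gene was called when its Benjamini-Hochberg adjusted p from limma was below 0.05. Lower with shRCOR2 and higher with shRCOR1 were 96 genes (0.57%), which include the members because they were chosen for this pattern, so nothing is read from it; 80 genes (0.475%) had the reverse pair of calls, 104 were higher in both lines and 110 lower in both. With the replicate block, 36.2% of genes were called in the shRCOR2 line and 27.4% in the shRCOR1 line, and the 96 became 446. The median changes of the 5 members, -1.23 with shRCOR2 and 1.62 with shRCOR1, stood beside medians of 0.07 and 0.04 over all genes, as the choice of members required.

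The gap between the 2 changes was itself called negative for 5.97% and positive for 5.2% of all genes (30.4% in either direction with the block). Ranked by that gap, the members took places 2 (GEM), 3 (RAB31), 5 (TNFRSF21), 8 (MCAM) and 9 (RARRES2) of the 96. The first place went to PLAT, tissue plasminogen activator, with log2 changes of -1.25 with shRCOR2 and 2.43 with shRCOR1. The fourth was SLC7A5, a transporter of large neutral amino acids, at -1.45 and 1.68. SLC7A5 differed from the members in the shCTRL line, where it was 210 and 309 TPM in induced against 124 and 163 TPM in untreated cells (log2 change 0.84). The 91 genes that are not members had a median of -0.75 with shRCOR2 and 0.65 with shRCOR1. At the edge of the set, DYNC1I2 (-0.35 and 0.33) and GSPT1 (-0.38 and 0.36) lay just inside the threshold and UCK2 (-0.48 and 0.31) and PRTG (-0.42 and 0.50) just outside it.

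**Figure D3:**
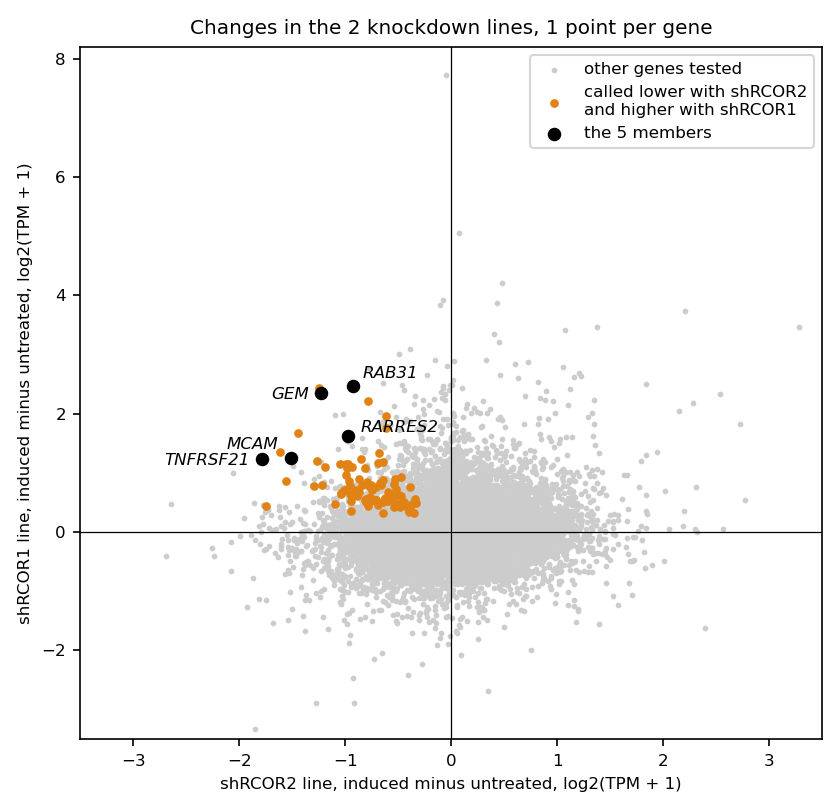
Each point is a gene; the x axis is the log2 change of TPM + 1 in the shRCOR2 line and the y axis that in the shRCOR1 line, induced minus untreated. The 96 genes called lower and higher are orange and the members black, at the outer edge of the upper left part, from -1.79 to -0.93 on the x axis.

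The members were not all equally alike when their log2(TPM + 1) values were centred and compared library by library. TNFRSF21 and MCAM were the closest of the 10 pairs, with a root mean square difference of 0.17 over the 12 libraries. RAB31 and RARRES2 (0.30) came next, then MCAM and RARRES2 (0.32) and GEM and RAB31 (0.34), and GEM and MCAM (0.55) were furthest apart.

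Across all other genes tested, the same 3 lay nearest to both TNFRSF21 and MCAM: CNN1, ACTN1 and RHOC. CNN1 encodes calponin, an actin-binding protein, ACTN1 an alpha-actinin that crosslinks actin, and RHOC a small GTPase that acts on the actin cytoskeleton. CNN1 was 0.14 from MCAM and 0.22 from TNFRSF21. It was 1.69 and 2.45 TPM in induced against 6.74 and 10.2 TPM in untreated shRCOR2 cells, 23.3 and 24.6 TPM in induced against 8.62 and 8.89 TPM in untreated shRCOR1 cells, and 5.59 and 9.72 TPM in induced against 7.99 and 12.3 TPM in untreated shCTRL cells. ACTN1, far more abundant, had 37.3 and 39.7 TPM in induced against 101 and 133 TPM in untreated shRCOR2 cells and 179 and 231 TPM in induced against 108 and 114 TPM in untreated shRCOR1 cells. These genes were picked for their likeness, so their levels are a description.

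GEM lay nearest to PLAT (0.31), FOSL2 (0.31) and PNMA3 (0.42), and RAB31 nearest to FOSL2 (0.21), PLPP2 (0.25) and SAMD4A (0.27). FOSL2, a subunit of the AP-1 transcription factor, was 5.96 and 5.82 TPM in induced against 11.3 and 10.5 TPM in untreated shRCOR2 cells, and 48.8 and 54.7 TPM in induced against 9.96 and 10.8 TPM in untreated shRCOR1 cells. PLAT was 1.81 and 2.19 TPM in induced against 6.20 and 6.05 TPM in untreated shRCOR2 cells, and 46.4 and 27.8 TPM in induced against 5.58 and 6.12 TPM in untreated shRCOR1 cells. Unlike GEM, PLAT had uneven replicates where it was high. RARRES2 lay nearest to COL22A1 (0.23), PLPP2 (0.23) and CRABP1 (0.24), the last a cytoplasmic carrier of retinoic acid.

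**Figure D4:**
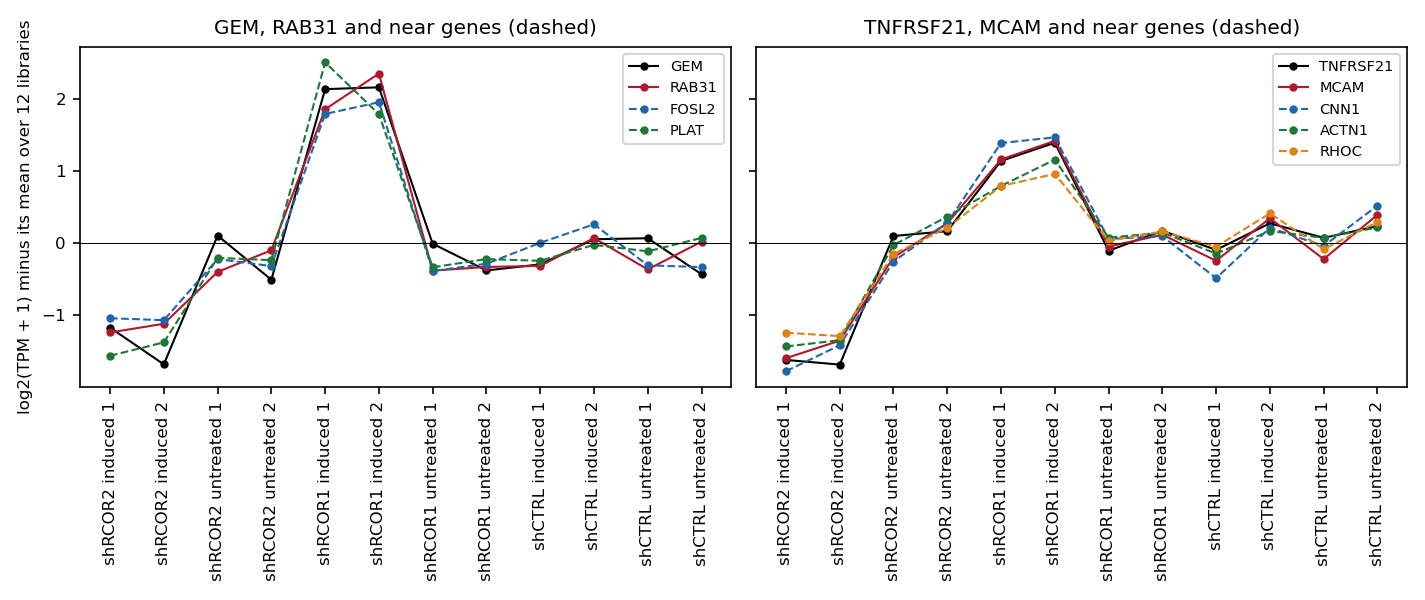
Log2(TPM + 1) minus its mean over the 12 libraries (y axis) in each library (x axis), for members (solid) and genes nearest to them (dashed). The left panel peaks higher in induced shRCOR1 cells, as RAB31 does with a log2 change of 2.47; the right panel has the deeper fall in induced shRCOR2 cells, as TNFRSF21 does with -1.79.

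Relatives and partners of the members were listed by function in 6 lists. Their counts stand against 7.81% higher and 6.47% lower calls with shRCOR2 and 4.98% higher and 3.64% lower calls with shRCOR1 over all genes. Beside GEM, 14 of 18 RGK GTPases and partners were tested: in the shRCOR2 line 0 rose and 2 fell, and in the shRCOR1 line 2 rose and 0 fell (3 and 2, then 4 and 1, with the replicate block). The calls with shRCOR2 came to 0 without any 1 shRCOR2 library and 1 without either untreated shRCOR1 library, and those with shRCOR1 to 1 without either untreated shRCOR1 library or induced replicate 1. RRAD, another RGK GTPase, was 1.70 and 2.88 TPM in induced against 0.0632 and 0.129 TPM in untreated shRCOR1 cells, a rise of 1.56 ± 0.20 SE on the log2 scale (limma adjusted p = 0.00320). It was 0.255 and 0.229 TPM in induced against 0.281 and 0.102 TPM in untreated shRCOR2 cells (limma adjusted p = 0.875), and it entered the test through the induced shRCOR1 libraries alone. EZR, ezrin, which links membrane to actin, fell with shRCOR2 (log2 change -0.59 ± 0.11 SE, limma adjusted p = 0.0119) and rose with shRCOR1 (log2 change 0.52 ± 0.11 SE, limma adjusted p = 0.0249).

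Of the RAB5 subfamily with its exchange factors and effectors, 20 of 22 genes were tested besides RAB31. In the shRCOR2 line 0 rose and 1 fell, and in the shRCOR1 line 1 rose and 1 fell (3 and 2, then 8 and 2, with the replicate block). With shRCOR2, 0 calls were left without untreated replicate 2 or induced replicate 1 of that line, and with shRCOR1, 1 call without any 1 shRCOR1 library or either untreated shRCOR2 library. RAB20 had the change in the shRCOR2 line, at 0.829 and 1.21 TPM in induced against 3.55 and 5.11 TPM in untreated cells (log2 change -1.39 ± 0.23 SE, limma adjusted p = 0.00673). In the shRCOR1 line RAB20 was 6.86 and 6.26 TPM in induced against 5.28 and 4.37 TPM in untreated cells and did not pass (limma adjusted p = 0.370). RAB5A, the early endosome GTPase, rose by 0.68 ± 0.15 SE (limma adjusted p = 0.0278) and M6PR, a mannose 6-phosphate receptor, fell by 0.73 ± 0.08 SE (limma adjusted p = 0.00183) in the shRCOR1 line.

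Death receptors, ligands and adaptors went in mixed directions beside TNFRSF21. With 15 of 19 tested, induction of shRCOR2 raised 2 and lowered 2, and induction of shRCOR1 raised 2 and lowered 1 (4 and 2, then 4 and 1, with the replicate block). The calls with shRCOR1 came to 0 without untreated replicate 1, untreated replicate 2 or induced replicate 2 of that line, and to 1 without induced replicate 1. EDA2R was 33.1 and 33.5 TPM in induced against 14.3 and 12.5 TPM in untreated shRCOR2 cells (log2 change 1.25 ± 0.12 SE, limma adjusted p = 0.000903). FAS, a death receptor like TNFRSF21, was 5.14 and 4.35 TPM in induced against 1.67 and 1.47 TPM in untreated shRCOR2 cells (log2 change 1.16 ± 0.16 SE, limma adjusted p = 0.00375). So 2 receptors of the list rose in the line in which TNFRSF21 was lower. CASP6, an effector caspase, fell to 3.40 and 3.41 TPM in induced shRCOR2 cells, against 8.72 and 8.83 TPM in untreated cells (limma adjusted p = 0.00100). TNFRSF1A, the main TNF receptor, rose in the shRCOR1 line by 1.02 ± 0.18 SE (limma adjusted p = 0.0104), beside 0.60 in the shCTRL line. In the shRCOR2 line TNFRSF1A was 45.2 and 43.3 TPM in induced against 31.7 and 29.5 TPM in untreated cells (log2 change 0.52 ± 0.18 SE, limma adjusted p = 0.0840, and 0.0291 with the replicate block). APLP2, of the amyloid precursor family, was named after its values were seen: it fell with shRCOR2 (log2 change -0.55, limma adjusted p = 0.0322) and rose with shRCOR1 (log2 change 0.60, limma adjusted p = 0.0328).

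Of MCAM ligands and immunoglobulin adhesion molecules, 23 of 27 were tested; with shRCOR2, 3 rose and 2 fell, and with shRCOR1, 2 rose and 1 fell (4 and 4, then 6 and 2, with the replicate block). The calls with shRCOR2 came to 2 without either untreated shRCOR2 library or induced replicate 1, and 3 without induced replicate 2. Those with shRCOR1 came to 0 without untreated shRCOR1 replicate 1, 1 without any other shRCOR1 library and 5 without either induced shCTRL library. LGALS3, galectin-3, a lectin that binds MCAM, was 5.61 and 12.2 TPM in induced against 0.488 and 0.909 TPM in untreated shRCOR1 cells (log2 change 2.47 ± 0.41 SE, limma adjusted p = 0.00879). One induced shCTRL library also reached 2.44 TPM of LGALS3, against 0.690 TPM in its partner, and LGALS3 reached 1 TPM in no library other than these 3. KDR, the VEGF receptor that pairs with MCAM in endothelium, was 3.05 and 5.56 TPM in induced against 0.438 and 0.483 TPM in untreated shRCOR2 cells (limma adjusted p = 0.00250), and LAMA4, the laminin chain bound by MCAM, was 11.3 and 12.6 TPM against 3.59 and 4.91 TPM (limma adjusted p = 0.0182). MSN, moesin, an actin linker, fell to 52.4 and 56.4 TPM in induced shRCOR2 cells, against 144 and 123 TPM in untreated cells (limma adjusted p = 0.000571). KDR entered the test through the induced shRCOR2 libraries alone. The 8 fibroblast and endothelial markers, 3 of them below 1 TPM in every library, summed to 42.1 to 54.8 TPM in induced against 37.7 to 84.4 TPM in untreated shRCOR2 cells and to 38.2 to 87.5 TPM in induced against 37.6 to 62.6 TPM in untreated shRCOR1 cells, ranges that overlapped. In the shCTRL line they summed to 34.6 to 152 TPM in induced and 45.5 to 159 TPM in untreated cells, so 1 library of each shCTRL group stood above all others.

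Chemerin receptors and retinoid response genes were sparse: 13 of 25 were tested. In the shRCOR2 line 0 rose and 2 fell, and in the shRCOR1 line 3 rose and 1 fell (0 and 4, then 7 and 2, with the replicate block). The calls with shRCOR2 came to 0 without any 1 shRCOR2 library and 1 without either untreated shRCOR1 library, and those with shRCOR1 to 1 or 2 without any 1 library other than an induced shCTRL one. CRABP1 moved as RARRES2 did, at 140 and 158 TPM in induced against 214 and 270 TPM in untreated shRCOR2 cells (log2 change -0.68 ± 0.17 SE, limma adjusted p = 0.0324) and 603 and 779 TPM in induced against 268 and 273 TPM in untreated shRCOR1 cells (log2 change 1.34 ± 0.17 SE, limma adjusted p = 0.00345). Its relative CRABP2 was 119 and 124 TPM in induced against 28.4 and 37.8 TPM in untreated shRCOR1 cells (limma adjusted p = 0.0382), and it did not pass in the shRCOR2 line (-0.64, limma adjusted p = 0.389). RARA, a retinoic acid receptor, fell by 0.51 ± 0.12 SE in the shRCOR1 line (limma adjusted p = 0.0386), and RXRG, a retinoid X receptor near 1 TPM at most, rose there by 0.64 ± 0.17 SE (limma adjusted p = 0.0494) and entered the test through the induced shRCOR1 libraries alone.

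Genes of the cAMP response, of which GEM is a known target, had the most calls in the shRCOR1 line: 7 of 17 tested rose and 0 fell there, whereas in the shRCOR2 line 1 rose and 1 fell (11 and 0, then 3 and 2, with the replicate block). VGF, CGA and VIP were put on this list with earlier results of these libraries known. All of them are among the 7 rises, so neither that count nor their direction is independent evidence. VGF, a secreted neuropeptide precursor, was 227 and 479 TPM in induced against 17.4 and 16.3 TPM in untreated shRCOR1 cells (log2 change 4.21 ± 0.49 SE, limma adjusted p = 0.00256). In the shRCOR2 line VGF was 23.7 and 20.6 TPM in induced against 17.2 and 14.1 TPM in untreated cells, so it shared the rise of the members and not their fall. VIP, another neuropeptide, rose in both lines (limma adjusted p = 0.000620 with shRCOR2 and 0.00110 with shRCOR1). It was 8.61 and 9.44 TPM in induced against 0.848 and 0.613 TPM in untreated shRCOR2 cells. In the shRCOR1 line it was 5.71 and 7.87 TPM in induced against 0.716 and 0.376 TPM in untreated cells. VIP reached 1 TPM in these induced libraries alone, so it entered the test through the groups in which it was high. ATF3, a stress-responsive factor, rose by 2.15 ± 0.34 SE in the shRCOR1 line (limma adjusted p = 0.00710), beside 0.84 in the shCTRL line, where it was 35.8 and 79.3 TPM in induced against 26.2 and 32.8 TPM in untreated cells. ATF3 was also 52.8 and 49.8 TPM in induced against 19.8 and 27.5 TPM in untreated shRCOR2 cells (log2 change 1.10 ± 0.34 SE, limma adjusted p = 0.0615, and 0.00848 with the replicate block), so its values were higher after induction in all 3 lines. The 7 calls became 2 without untreated shRCOR1 replicate 1, 3 without untreated shRCOR1 replicate 2, 4 without induced shRCOR1 replicate 2 and 3 when only the 4 shRCOR1 libraries were fitted. The calls with shRCOR2 came to 1 without any 1 shRCOR2 library and 4 without either induced shCTRL library.

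Across the 6 lists, EZR, APLP2 and CRABP1 were the 3 listed genes called lower with shRCOR2 and higher with shRCOR1. Over all genes tested, 0.57% had this pair of calls. Among the marker genes FOSL2 alone had it. No list gene was called in the shCTRL line, with or without the block, where 0% of all genes were called (0.0594% with the block). The 10 mesenchymal neuroblastoma markers, FOSL2 included, summed to 227 to 228 TPM in induced against 238 to 307 TPM in untreated shRCOR2 cells and to 320 to 511 TPM in induced against 234 to 269 TPM in untreated shRCOR1 cells. In the shCTRL line they summed to 247 to 463 TPM in induced and 272 to 453 TPM in untreated cells. Of these markers VIM moved most in TPM in the shRCOR1 and shRCOR2 lines. It was 180 and 340 TPM in induced against 75.4 and 116 TPM in untreated shRCOR1 cells. In the shRCOR2 line it was 42.9 and 52.7 TPM against 73.3 and 138 TPM. VIM also differed between replicates in the shCTRL line, at 113 and 281 TPM in induced and 96.7 and 209 TPM in untreated cells. Single mesenchymal markers did not all follow the sum, and without the block FOSL2, not VIM, was called higher with shRCOR1. Of 9 tested, 0 rose and 1 fell with shRCOR2, and 1 rose and 1 fell with shRCOR1 (0 and 2, then 5 and 1, with the replicate block). TWIST1, named after its values were seen, had log2 changes of -0.99 in the shRCOR1 line (limma adjusted p = 0.00303) and -0.59 in the shCTRL line. The summed level of the 10 adrenergic markers was 5200 to 5594 TPM in induced against 8895 to 8955 TPM in untreated shRCOR2 cells and 5927 to 6437 TPM in induced against 9561 to 9636 TPM in untreated shRCOR1 cells. In the shCTRL line it was 5924 to 8382 TPM in induced against 7673 to 9123 TPM in untreated cells, down to the level of the induced knockdown lines in 1 library. MYCN and CHGA, the most abundant of these markers, weighed most in the sums. Their means were 1156 and 1434 TPM in induced against 2848 and 2830.5 TPM in untreated shRCOR2 cells. In the shRCOR1 line their means were 2288 and 1121 TPM in induced against 2830 and 3237 TPM in untreated cells. HAND2 was higher with shRCOR2, with means of 870 TPM in induced against 793 TPM in untreated cells. Single adrenergic markers went both ways: 1 rose and 3 fell with shRCOR2, 0 rose and 4 fell with shRCOR1, and 0 were called in the shCTRL line (2 and 5, then 1 and 6, then 0, with the replicate block). The part of these marker shifts in the members' values was not tested.

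**Figure D5:**
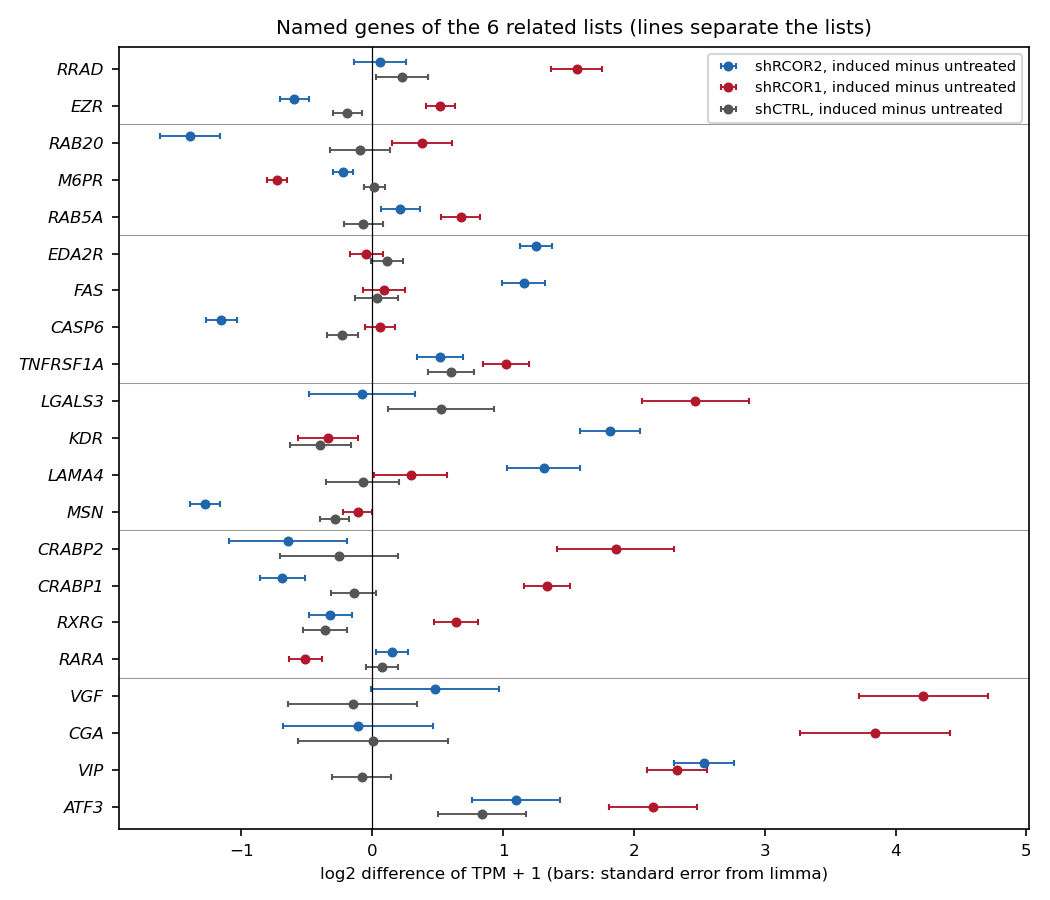
Log2 differences of TPM + 1, induced minus untreated (x axis, bars are limma standard errors), in the 3 lines for named genes of the 6 lists. EZR and CRABP1 lie left of 0 in the shRCOR2 line and right of it in the shRCOR1 line, while VGF lies at 4.21 in the shRCOR1 line and 0.48 in the shRCOR2 line.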

How the data were processed

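RNA-seq of 12 Kelly libraries was used, 2 in each of 6 groups (3 shRNA lines, induced or untreated). The submitters' processing notes name Trim Galore 0.6.7 (a read trimmer), HISAT2 2.2.1 (an aligner) and StringTie 2.1.7 (a quantifier) with GRCh38 (hg38), without giving settings; no source used here gives the annotation release or strand setting. The authors deposited gene tables with TPM, FPKM and coverage as a signal per gene, and no counts, so absolute depth is unknown and no counting interval is given; relative depth is coverage over FPKM. Rows with the same gene ID were summed.

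TPM was analysed as log2(TPM + 1) with limma 3.58.1 (R 4.3.3), on group means of all 12 libraries with a variance trend. Genes needed at least 1 TPM in at least 2 libraries, which left 16842, and a call was a Benjamini-Hochberg adjusted p below 0.05. The fit was run on simulated data in which libraries varied independently, so that run does not cover libraries that deviate together. A fold change on this scale understates the change of low genes. Same-numbered libraries deviated together, with correlations of 0.372 to 0.750 over the 15 pairs of groups, so blocked values are given where they change a call or a count.

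The members and gene lists were chosen with earlier results of these data known. Named genes were the 5 members, up to 4 called genes per list with the largest change, the 3 genes nearest to each member, the 5 genes with the largest opposite change, and the targets; 1 gene under this rule is not reported here. Alternatives were FPKM, an added 0.1, no filter, a filter of 5 TPM, median-of-ratios and quantile scaling, TPM without mitochondrial genes, the block, fits of only the 4 libraries compared, and leaving out each library. Motifs were searched on both strands of the RefSeq promoter windows.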

Additional observations from a re-analysis of the deposited data

Results flagged for a closer look

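Among the members and the named list genes, the change in the shRCOR2 line minus the change in the shRCOR1 line singled out 21 genes. For the members this gap chose them and was not tested here: it was -3.58 for GEM, -3.40 for RAB31, -3.02 for TNFRSF21, -2.77 for MCAM and -2.59 for RARRES2 on the log2 scale.

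For 16 of the named list genes the gap passed limma's test of the difference itself over all genes tested (Benjamini-Hochberg adjusted p below 0.05). The gap was negative with most of the change in the shRCOR1 line for CGA (-3.95), VGF (-3.73), LGALS3 (-2.55), CRABP2 (-2.51), CRABP1 (-2.02), RRAD (-1.50) and RXRG (-0.96). It was negative with most of the change in the shRCOR2 line for RAB20 (-1.77), CASP6 (-1.21) and MSN (-1.16). For EZR (-1.11) it was negative with changes of similar size in both lines. EZR and CRABP1 were called in opposite directions in the 2 lines. It was positive for KDR (2.15), EDA2R (1.29) and FAS (1.07), which were higher in induced shRCOR2 cells, and for RARA (0.66) and M6PR (0.50), which were lower in induced shRCOR1 cells. CGA was 6.61 and 34.2 TPM in induced against 0.133 and 0.147 TPM in untreated shRCOR1 cells, so its replicates were far apart. CGA, RRAD and RXRG reached 1 TPM in induced shRCOR1 cells alone, KDR in induced shRCOR2 cells alone, and LGALS3 in induced shRCOR1 cells and 1 induced shCTRL library, so they entered the test through the groups in which they were high. Groups of 2 libraries are too small for a check of single outlying libraries.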

How the results depend on the processing

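The members' changes in the shRCOR2 and shRCOR1 lines kept their sign under the 9 alternative settings and the 12 fits without 1 library, a direction that the choice of members fixes. With the replicate block the calls were 6100 (shRCOR2), 4620 (shRCOR1), 10 (shCTRL) and 5125 (gap between lines), and 446 genes were called oppositely. The oppositely called genes numbered 59 without mitochondrial genes and 34 with only the 4 libraries compared, which gave 585 calls in the shRCOR1 line and 1 between untreated shRCOR2 and shCTRL cells. With no filter, 6 genes were called in the shCTRL line, 5 between untreated shRCOR2 and shCTRL cells and 2 between untreated shRCOR1 and shCTRL cells; the cause of these shifts was not tested. Leaving out 1 library gave 493 to 3036 calls with shRCOR2, 326 to 1900 with shRCOR1, 693 to 2353 for the gap, 0 to 0 with shCTRL, 0 to 1 between untreated lines, and 17 to 158 oppositely called genes. The last was 18 and 17 without untreated shRCOR1 replicates 1 and 2, 43 and 27 without induced shRCOR1 replicates 1 and 2, 33 and 24 without untreated and 23 and 27 without induced shRCOR2 replicates 1 and 2, and 157 and 158 without induced shCTRL replicates 1 and 2. Values near 0 changed sign: GEM between untreated shRCOR1 and shCTRL cells was 0.0100 in FPKM, 0.0287 with median-of-ratios and 0.0337 with quantile scaling, MCAM in the shCTRL line was 0.00667 in FPKM, and RARRES2 there was 0.0119 in FPKM and 0.00823 with median-of-ratios scaling. Without 1 library, the shCTRL change ran from -0.19 to 0.31 for GEM, -0.14 to 0.24 for RAB31, -0.25 to 0.12 for TNFRSF21, -0.34 to 0.27 for MCAM and -0.33 to 0.30 for RARRES2. The difference between untreated shRCOR2 and shCTRL cells ran from -0.33 to 0.29 for GEM, -0.27 to 0.12 for RAB31, -0.10 to 0.0594 for TNFRSF21, -0.35 to 0.26 for MCAM and -0.17 to 0.46 for RARRES2. Between untreated shRCOR1 and shCTRL cells it ran from -0.26 to 0.24 for GEM, -0.38 to 0.00896 for RAB31, -0.26 to 0.0180 for TNFRSF21, -0.36 to 0.26 for MCAM and -0.00591 to 0.63 for RARRES2. In a fit that leaves a group with 1 library, that library is assumed to vary like the others. With 2 libraries a group, and RARRES2 near 1 TPM in induced shRCOR2 cells, small changes could not be resolved.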
